A study of Mus musculus with 16 samples.

Results

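The genes described here are 28 genes of cholesterol synthesis and its control by the transcription factor SREBP2, chosen by symbol from what the genes are known to do, with earlier results of these data known. All 28 were found among the 25719 genes of the deposited table of whole-liver RNA. The study asked how the activating receptor NKG2D, encoded by Klrk1, acts in fatty liver disease, and it sequenced livers of male WT mice (C57BL/6J) and of Klrk1-/- mice, a whole-animal knockout line kept as a breeding colony. Mice were 8 to 12 weeks old and ate either a normal chow diet (NCD) or a steatosis-steatohepatitis diet (SSD) for 3 weeks. SSD draws 40% of its calories from animal fat and holds 22% fructose and 2% cholesterol, so a difference between the diets cannot be assigned to any one of these. There were 4 NCD-fed WT mice, 4 NCD-fed Klrk1-/- mice, 5 SSD-fed WT mice and 3 SSD-fed Klrk1-/- mice, 16 in all, with 1 library per mouse. Whether the WT mice were littermates of the Klrk1-/- mice is not given in the sources used here, so that the line and the colony cannot be told apart from the missing receptor.

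Cells make cholesterol from acetyl-CoA in a long chain of enzymes that runs through mevalonate, the isoprenoid diphosphates, squalene and lanosterol. SREBP2 sits in the membrane of the endoplasmic reticulum bound to its escort SCAP, and when sterols are scarce both travel to the Golgi, where SREBP2 is cleaved and freed to enter the nucleus and activate genes of this chain. When sterols are plentiful, the INSIG proteins hold SCAP in the endoplasmic reticulum and the genes fall silent, and the liver, which takes up cholesterol from the gut, is known for a large drop in synthesis on a cholesterol-rich diet.

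Libraries held between 19892025 and 28936707 reads on genes. Values below are normalized read counts, the reads of a gene divided by 1 factor per library. Klrk1 was measured at 20.1 to 28.7 in NCD-fed WT mice and 32.9 to 71.1 in SSD-fed WT mice, against 1.23 to 8.71 and 0.966 to 4.29 in the Klrk1-/- mice of the same diets, so that no library went against its genotype label. All 8 hepatocyte markers looked for were present in every group, and their summed count ran from 1836570 to 3041810 per mouse. SSD-fed WT replicate 1 stood apart in its summed counts of 8 macrophage markers (18517) and of 6 stellate cell markers (21776), the highest of all 16 mice. It was also the lowest of its 5 mice for 15 of the 27 members that could be tested, where the others were lowest for 0 to 7. In the smaller group of 3 SSD-fed Klrk1-/- mice, replicate 1 was the lowest for 16 and replicate 3 the highest for 18. Without SSD-fed WT replicate 1, 23 members were called lower and 1 higher on SSD in WT mice, as with it. Its effect on the genotype comparison on SSD is given there.

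The letters that SREBP2 and its partners are known to read were looked for in RefSeq promoters (build GRCm38.p6), each running from 250 bases before to 50 bases after a transcript start, on both strands. The table held 30 promoters of 24 members, and not those of Fdft1, Fdps, Sqle and Stard4. TCACNCCAC, the classic sterol regulatory element, was found in Hmgcs1 alone among the members and in 1.24% of all 32851 promoters. The looser TCACNNCAC, which includes it, was found in 4 members and in 3.77% of all promoters. CCAAT, the box read by NF-Y, was found in 22 of 24 members and 22 of their 30 promoters, against 37.4% of all promoters. GGGCGG, read by Sp1, was found in 21 of 24 members and 24 of their 30 promoters, against 35.7%. CACGTG, the E-box, was found in 5 members (Scap, Insig1, Hsd17b7, Sc5d and Dhcr7). That was 6 of the 30 member promoters, against 7.15% of all promoters. Members with several listed starts had more windows to match in, and a match describes the letters only. The windows that follow show the members with a sterol element, and Sc5d and Insig1 for their E-box. They read 5′ to 3′ on the strand of the gene, with matches to any of these motifs, on either strand, in capitals.
Hmgcs1: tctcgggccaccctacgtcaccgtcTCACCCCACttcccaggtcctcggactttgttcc
Hsd17b7: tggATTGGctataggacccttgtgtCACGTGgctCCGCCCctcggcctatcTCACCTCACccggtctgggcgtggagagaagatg
Msmo1: cacggaCCAATCACTGCACggcgaaggca
Dhcr7: ggaaaagggcTCACTTCACcttatagctc
Sc5d: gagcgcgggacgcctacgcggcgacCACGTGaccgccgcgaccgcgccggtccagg
Insig1: tgggtgaggtCACGTGgctccggtgg
Matched exactly to GRCm39, the Hmgcs1 window lies at chr13:120151725-120151783 on the plus strand, 131 bases before the annotated gene. The Hsd17b7 window lies at chr1:169796858-169796942 and the Sc5d window at chr9:42175664-42175719, both on the minus strand, 44 and 58 bases before their genes. These 3 windows overlap an exon of a gene annotated on the opposite strand. The Msmo1 window lies at chr8:65186686-65186714 on the minus strand, and CCAAT and the sterol element share a base there. The Dhcr7 window, from the second of 3 listed starts, lies at chr7:143376996-143377024 and the Insig1 window at chr5:28276299-28276324, both on the plus strand. Before trimming, the Msmo1, Dhcr7 and Insig1 windows touched an untranslated exon of their own gene in GENCODE M39, so only the match and its nearest bases are shown. The E-box of Dhcr7 is in the same promoter, outside the printed bases.

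On NCD the members spanned a wide range of levels. Per kilobase of the gene length in the table, whose derivation is not given in the sources used here, the highest mean levels in NCD-fed WT mice were those of Ebp (7721 normalized counts per kilobase), which encodes the sterol isomerase, and Fdps (7289), which encodes farnesyl diphosphate synthase. Insig2 (6221), Sc5d (5666) and Insig1 (5147) followed on the same scale. The table lists 783 bases for Insig2, which appears short for this gene, so its level per kilobase may be too high and its place in the order is uncertain. Apart from Npc1l1, the lowest was Mylip (37.7). Npc1l1, the sterol importer of enterocytes, had at most 2 reads in every mouse and was at the floor of 3 reads throughout, so that it could not be tested. The other 27 members were tested on the log2(normalized count + 1) scale where they averaged at least 10 normalized counts in the mice compared. Only Idi1, between genotypes on SSD, fell below that minimum. On SSD the order on the per-kilobase scale was another one: in SSD-fed WT mice Ebp stood at 3263 and Insig2 at 7994, and Sqle, at 931 on NCD, was at 8.08.

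**Figure D1:**
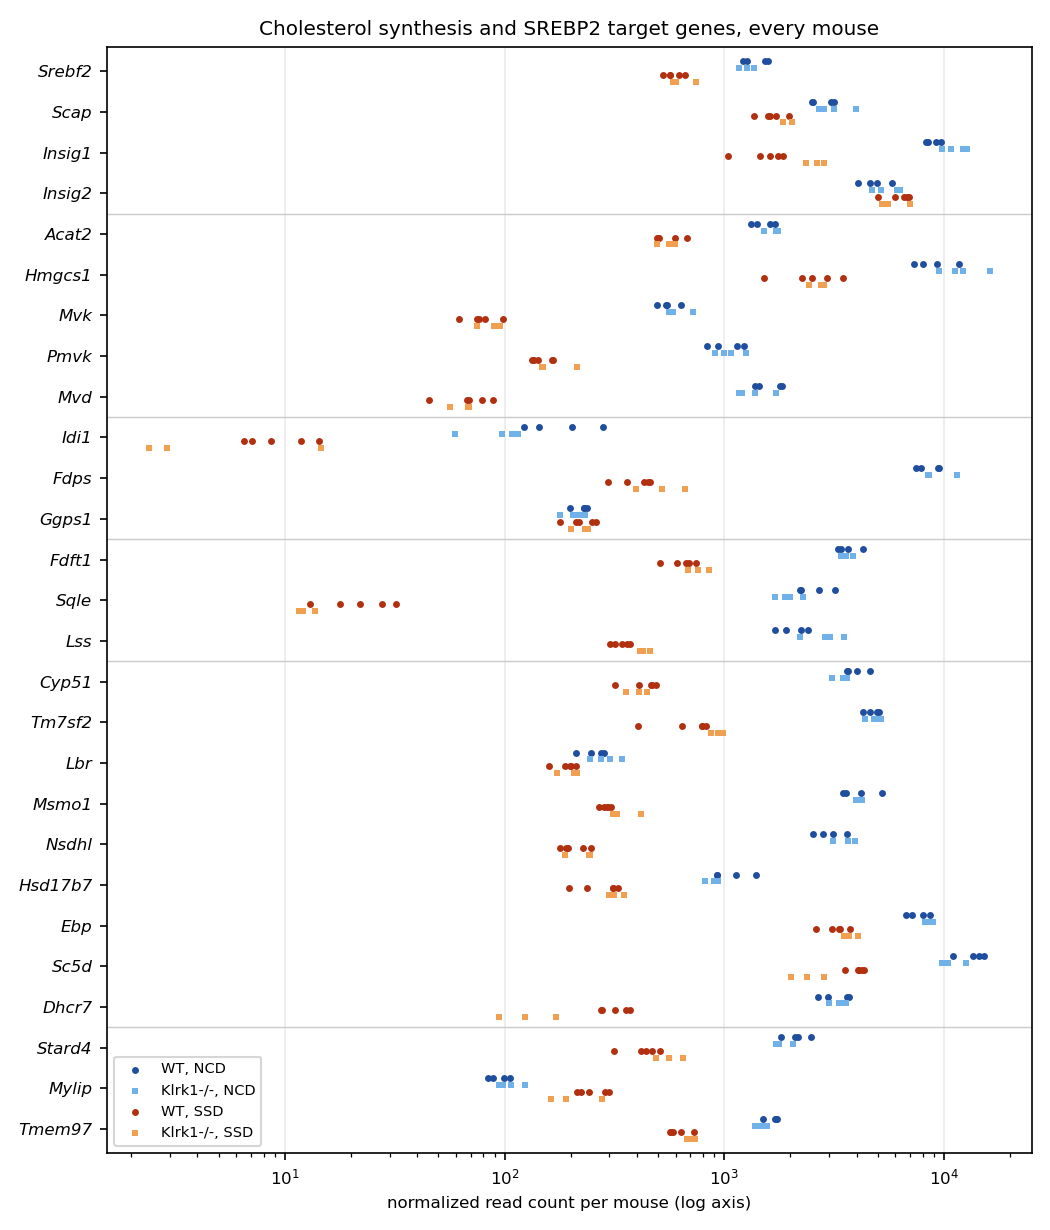
Normalized read count (x axis, log scale) of each of the 27 tested members (y axis, in pathway order, with lines between the roles) in each of the 16 mice, coloured by genotype and diet. For 24 members the values of WT mice on SSD (5 mice) and on NCD (4 mice) did not overlap, and among WT mice Sqle, Mvd, Fdps and Idi1 differed by the largest folds.

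The diet comparison asks which members differ after 3 weeks of SSD. In WT mice 23 of 27 members were lower on SSD, 1 was higher, and their median log2 fold change was -2.51 against -0.0015 for all genes tested. A gene was called when limma's Benjamini-Hochberg adjusted p was under 0.05 and the difference was more than 1.5-fold. By the same rule 7.32% of the 13091 genes tested were called lower and 11.9% higher. The groups did not overlap for 24 members, against 29% of all genes. Of the 100 genes with the lowest log2 fold change, 15 were members. In Klrk1-/- mice, whose comparison shares no mouse with the first, 23 members were again lower and 1 higher, with a median of -2.24 against -0.0020 for all genes. There 6.6% of 12904 genes were called lower and 6.54% higher, and 25 members did not overlap between diets, against 37.6% of all genes. The members called were the same 24 genes in both genotypes, and Mylip was the one higher in each. In whole tissue, fewer cells of a type and less RNA per cell cannot be told apart. The summed hepatocyte markers were also lower on SSD, at 1836570 to 2056140 against 2545090 to 2909000 in WT mice and at 2184240 to 2384220 against 2410310 to 3041810 in Klrk1-/- mice. In WT mice 4 of 8 macrophage markers (sums 5568 to 6182 on NCD and 7683 to 18517 on SSD), 2 of 5 endothelial markers and 1 of 6 stellate cell markers were called higher on SSD, 3 of 8 hepatocyte markers lower, and of 14 clock genes 3 were lower and 2 higher. Among Klrk1-/- mice 1 macrophage, 1 stellate cell and 1 cholangiocyte marker were called higher on SSD, and 2 of 8 hepatocyte markers and 1 clock gene lower. Of enterocyte and acinar markers, 1 each passed the minimum, and in both genotypes that of enterocytes was called higher and that of acinar cells lower. The part of these in the result was not tested.

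**Figure D2:**
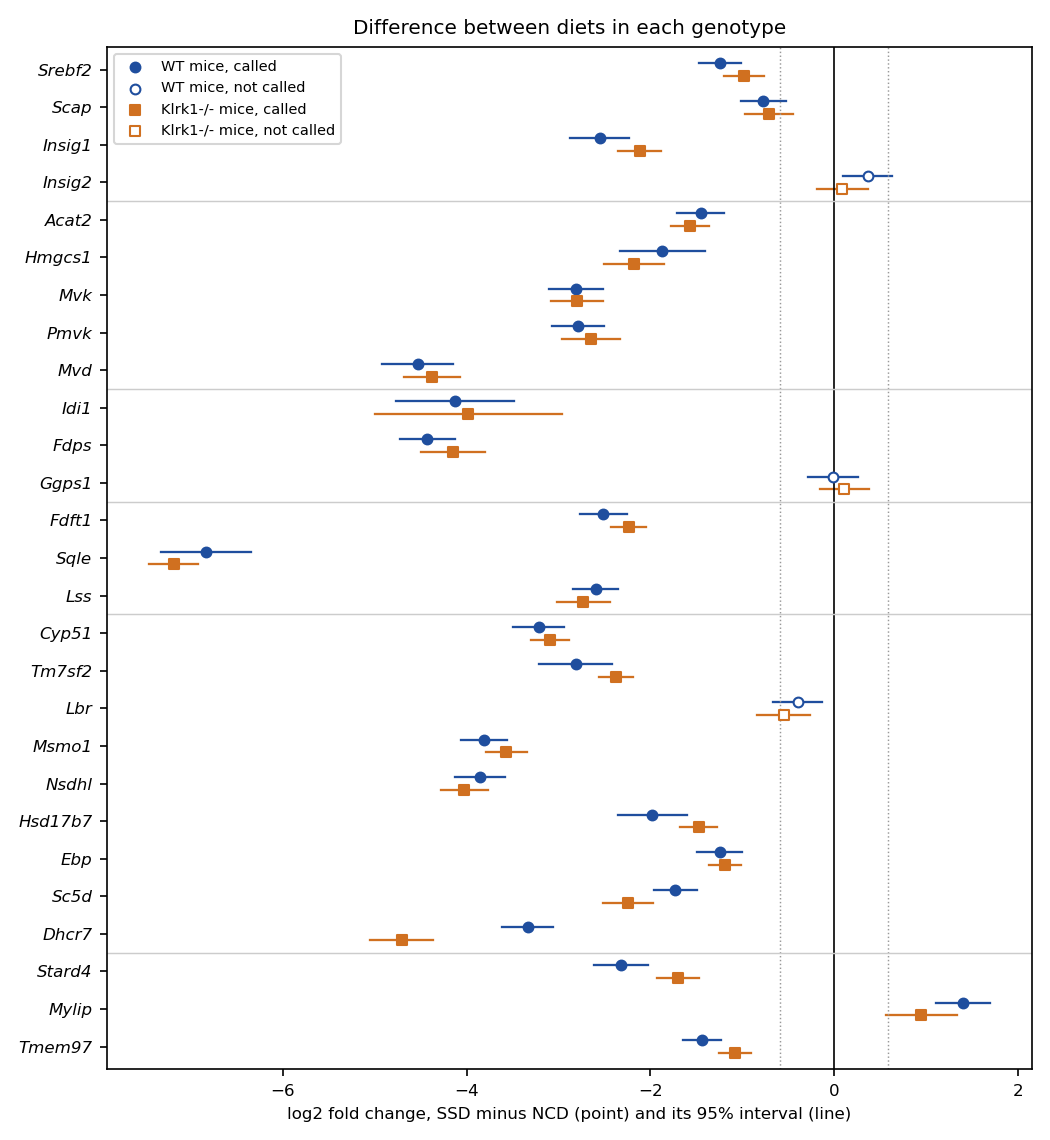
Log2 fold change of SSD against NCD (x axis) for each tested member (y axis) in WT mice (circles) and Klrk1-/- mice (squares), with its 95% interval as a line. Filled symbols are called, dotted lines mark 1.5-fold, and Dhcr7 is the member with the largest difference between the genotypes.

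Of the 4 regulators, 3 were lower on SSD in both genotypes. Srebf2, the gene of SREBP2 itself, was at 1222, 1579, 1537 and 1265 in the NCD-fed WT mice and at 526, 625, 663, 566 and 569 in the SSD-fed WT mice. Every SSD-fed WT mouse lay below every NCD-fed one, and the log2 fold change was -1.24 (SE 0.11, adjusted p = 6.2e-06). In Klrk1-/- mice it was -0.98 (SE 0.10, adjusted p = 3.33e-05). Insig1, which retains SCAP and is itself a target of SREBP2, fell further, from 9198, 9652, 8275 and 8433 to 1040.3, 1859.5, 1448, 1622 and 1753 in WT mice and from 9793, 12691, 10761 and 12254 to 2355, 2848 and 2643 in Klrk1-/- mice. These were log2 fold changes of -2.55 and -2.12 (adjusted p = 2.86e-07 and 1.1e-07). Scap, the escort, fell least of the 3, by 1.71-fold in WT mice (log2 fold change -0.77, SE 0.11) and 1.64-fold in Klrk1-/- mice (log2 fold change -0.71, SE 0.12). Insig2, whose protein acts like that of Insig1 but whose liver transcript is not an SREBP2 target, was not called. It was at 5827, 4071, 4965 and 4620.3 on NCD and at 6783, 6939.6, 6578, 5027 and 5969 on SSD in WT mice, with a log2 fold change of 0.36 (95% interval 0.10 to 0.63, adjusted p = 0.0381), inside the 1.5-fold limit, and in Klrk1-/- mice it was 0.09 (-0.19 to 0.36). When every library was scaled to the same total, the median of all genes moved to 0.34 in WT mice and 0.25 in Klrk1-/- mice, and the genes called came to 3467 higher and 409 lower in WT mice and 2122 higher and 480 lower in Klrk1-/- mice, against 1564 and 958, and 844 and 852, as deposited. Of the members, 22 were still called lower in each genotype. Insig2 was then called higher in WT mice, and Scap was within 1.5-fold in both genotypes.

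All 5 members from acetyl-CoA to isopentenyl diphosphate were lower in both genotypes. Acat2, the cytosolic thiolase that joins acetyl-CoA, fell least in WT mice (log2 fold change -1.45, SE 0.12), and whether reads were split with its close copy Acat3 is not known. Hmgcs1, which makes HMG-CoA, went from 7284, 9302, 11761 and 7998 to 1524, 3459, 2941, 2508 and 2248 in WT mice, a log2 fold change of -1.87 (SE 0.21, adjusted p = 5.86e-05). Its SSD values were spread widely, and replicate 1 was the lowest. The kinases Mvk and Pmvk fell, with log2 fold changes of -2.81 and -2.79 in WT mice and -2.80 and -2.64 in Klrk1-/- mice. Mvd, the decarboxylase that ends this stretch, fell most. It was at 1439.9, 1801, 1827 and 1378 in NCD-fed and 45.2, 88.7, 79.0, 67.5 and 68.6 in SSD-fed WT mice, and at 1374, 1725, 1208 and 1169.8 in NCD-fed and 68.6, 68.3 and 56.6 in SSD-fed Klrk1-/- mice. That is 23.1-fold lower in WT mice (log2 fold change -4.53, SE 0.18, adjusted p = 1.09e-08) and 20.8-fold lower in Klrk1-/- mice (SE 0.14 on the log2 scale, adjusted p = 2.67e-09).

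Of the 3 isoprenoid members, 2 fell and 1 did not. Fdps, at the branch toward squalene, was at 7854, 9518, 9390.3 and 7497 in NCD-fed WT mice and 296, 452, 433, 362 and 459.7 in SSD-fed WT mice. The drop was 21.5-fold in WT mice (log2 fold change -4.43, SE 0.14) and 17.7-fold in Klrk1-/- mice (log2 fold change -4.15, SE 0.16). Idi1, the isopentenyl diphosphate isomerase, had few reads, 8 to 15 per SSD-fed WT mouse and 3 to 17 per SSD-fed Klrk1-/- mouse, with 2 of the 3 latter mice at the floor. Its log2 fold changes were -4.12 (SE 0.29) and -3.98 (SE 0.47). With a pseudocount of 10 they were -3.28 and -2.70, and without SSD-fed Klrk1-/- replicate 3 that of Klrk1-/- mice was -4.68. Ggps1, which leads out of the pathway toward geranylgeranylated proteins, was at 199, 238, 229 and 231 on NCD and 211, 179, 219, 251 and 260.4 on SSD in WT mice. Its groups overlapped, and the log2 fold change was -0.01 (95% interval -0.28 to 0.26) in WT and 0.11 (-0.16 to 0.37) in Klrk1-/- mice, within 1.5-fold in both.

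The squalene steps held the member that fell most. Sqle, squalene epoxidase, was at 2208, 2703, 3207 and 2243 in NCD-fed WT mice and at 21.9, 32.1, 27.6, 17.8 and 13.1 in SSD-fed WT mice. In Klrk1-/- mice it went from 1985, 2293, 1705 and 1886 to 11.6, 12.05 and 13.7. The groups were far apart in both genotypes, with drops of 114-fold (log2 fold change -6.83, SE 0.23, adjusted p = 2.16e-09) and 146-fold (log2 fold change -7.19, SE 0.12, adjusted p = 1.14e-11). In order of log2 fold change it was number 3 of 13091 genes from the lowest in WT mice and number 2 of 12904 in Klrk1-/- mice. The SSD values rest on 16 to 38 reads per WT mouse and 12 to 16 per Klrk1-/- mouse, so the fold depends on the pseudocount: with 10 in place of 1 the log2 fold change was -6.34 in WT and -6.45 in Klrk1-/- mice. In GENCODE M39, later than the M26 used for counting, Sqle shares 470 exon bases with Washc5 on the opposite strand. Washc5 stood between 372 and 592 in all 16 mice. In the gene coordinates deposited with the counts no listed gene overlaps Sqle, and the use of strand in counting is not known. Whether reads in that stretch were shared therefore cannot be told. Fdft1, squalene synthase, fell 5.70-fold in WT mice (log2 fold change -2.51, SE 0.12) and 4.72-fold in Klrk1-/- mice (SE 0.09 on the log2 scale). In GENCODE M39 it shares 1184 exon bases with Ctsb on the opposite strand, which overlaps it in the deposited coordinates too. Lss, lanosterol synthase, fell 6.04-fold and 6.63-fold (log2 fold changes -2.59 and -2.73).

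After lanosterol, 8 of 9 members were lower in both genotypes. Nsdhl and Msmo1, which act in the removal of methyl groups from the sterol ring, fell in WT mice with log2 fold changes of -3.86 and -3.81 (SE 0.13 and 0.11). In Klrk1-/- mice the log2 fold changes were -4.02 and -3.57. Hsd17b7, the ketosteroid reductase of the same complex, fell less, with log2 fold changes of -1.98 in WT and -1.47 in Klrk1-/- mice. Cyp51, the lanosterol demethylase, fell 9.29-fold in WT and 8.53-fold in Klrk1-/- mice (log2 fold changes -3.22 and -3.09). The next step has enzymes from a pair of genes, of which 1 was called; the difference between the genes was not tested. Tm7sf2 went from 4975, 4612, 5038 and 4280.4 to 403, 824, 789, 645 and 795 in WT mice, a log2 fold change of -2.81 (SE 0.18). Lbr, a protein of the nuclear envelope with the same activity, went from 274, 283, 211 and 247 to 201.3, 188, 212, 199 and 159, with overlapping groups. Its log2 fold change of -0.40 (95% interval -0.67 to -0.13, adjusted p = 0.0261) was inside the 1.5-fold limit, as was that of -0.55 (-0.84 to -0.26, adjusted p = 0.00926) in Klrk1-/- mice. In the latter it was called lower without NCD-fed replicate 4 (-0.63, adjusted p = 0.00654) or SSD-fed replicate 3 (-0.60, adjusted p = 0.0202). In GENCODE M39, Cyp51 shares 1253 exon bases with Akap9 and Lbr 1391 with Dnah14, both on the opposite strand. Tm7sf2 shares 532 with Vps51 on its own strand. These pairs overlap in the deposited coordinates too, so their reads there are uncertain. The same holds for opposite-strand stretches of 1126 bases in Scap (with 5830462I19Rik) and 257 in Ggps1 (with Arid4b). GENCODE M39 also gives shared opposite-strand stretches of 686 bases in Srebf2 (with Shisa8) and 349 in Tmem97 (with Ift20). Others are of 331 bases in Nsdhl (with Cetn2) and 322 in Acat2 (with Tcp1). From Srebf2 to Acat2, none of these pairs overlaps in the deposited coordinates, so whether their reads were shared is not known. Hmgcs1, Mvd, Idi1 and Lss share between 323 and 559 bases with a predicted gene on the opposite strand in GENCODE M39. In the deposited coordinates Idi1 overlaps the same predicted gene, while no listed gene overlaps Hmgcs1 or Lss. There Mvd overlaps Galnt2l on the opposite strand and Fdps overlaps Gm43738 on its own strand. Ebp fell least of the called members of this stretch, by 2.37-fold in WT and 2.27-fold in Klrk1-/- mice (log2 fold changes -1.24 and -1.18). Sc5d, the desaturase that follows it, fell 3.32-fold in WT mice (log2 fold change -1.73, SE 0.11) and 4.73-fold in Klrk1-/- mice (log2 fold change -2.24, SE 0.13). Dhcr7, which makes cholesterol from its dehydro precursor, fell 10.1-fold in WT mice (log2 fold change -3.34, SE 0.13, adjusted p = 1.09e-08) and 26.1-fold in Klrk1-/- mice (log2 fold change -4.71, SE 0.16, adjusted p = 3.57e-09).

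Among the members of uptake and transport, Stard4, a carrier of sterol between membranes, went from 2155, 2495, 2106 and 1806 to 316, 440.2, 416, 467 and 512 in WT mice (log2 fold change -2.32, SE 0.14) and fell by 3.25-fold in Klrk1-/- mice (log2 fold change -1.70, SE 0.11). Tmem97, a sterol-responsive membrane protein, fell 2.71-fold and 2.11-fold (log2 fold changes -1.44 and -1.07). Mylip was the one member called higher. It encodes a ubiquitin ligase that marks lipoprotein receptors for breakdown and is known as a target of LXR, the receptor of oxidised sterols, rather than of SREBP2. It was at 84.4, 106, 88.6 and 99.3 in NCD-fed and 287, 242, 299, 224 and 214 in SSD-fed WT mice, and at 107, 98.3, 94.5 and 124 in NCD-fed and 162, 190.3 and 277 in SSD-fed Klrk1-/- mice. All SSD-fed mice lay above all NCD-fed mice in both genotypes. The log2 fold change was 1.40 (SE 0.13, adjusted p = 1.62e-05) in WT mice and 0.95 (SE 0.18, adjusted p = 0.00224) in Klrk1-/- mice.

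For a single member with groups that did not overlap, the exact two-sided permutation test gave p = 0.0159 in the diet comparison of WT mice, the smallest it can give there. With 4 against 3 Klrk1-/- mice its smallest value is 0.0571, so that test cannot pass 0.05 in those mice.

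The comparison of genotypes on NCD asks whether the missing receptor goes with another level of these genes before the diet. Of 27 members, 1 was lower and 0 were higher in Klrk1-/- mice, while 2.87% of the 12845 genes tested were called lower and 2.92% higher. The count of 0 higher came from limma, with edgeR and DESeq2 on recovered reads also giving 0. In either direction 6 members had an unadjusted p under 0.05. The groups did not overlap for 3 members, against 19.3% of all genes. The members had a median log2 fold change of 0.04. For 23 of the 27 members the 95% interval lay wholly within 1.5-fold. The member called was Idi1, at 144, 282, 203 and 122 in WT and 108, 116, 59.7 and 97.2 in Klrk1-/- mice, a log2 fold change of -0.94 (SE 0.26, adjusted p = 0.0325). The WT values were scattered and began just above the highest Klrk1-/- value. Without WT replicate 2 the log2 fold change was -0.72 (adjusted p = 0.0893), and without WT replicate 3 it was -0.88 (adjusted p = 0.0732). The call was also lost without Klrk1-/- replicate 3 (-0.73, adjusted p = 0.0904) or 4 (-0.97, adjusted p = 0.0516). Insig1 and Lss were higher in Klrk1-/- mice with adjusted p = 0.0401 and 0.0392 but inside 1.5-fold, with log2 fold changes of 0.35 (SE 0.10) and 0.49 (SE 0.14). Without Klrk1-/- replicate 4, Lss was called higher (0.61, adjusted p = 0.0147).

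On SSD the genotypes differed at 3 of the 26 members tested, since Idi1 fell below the minimum there. In Klrk1-/- mice 2 were lower and 1 higher, against 1.42% of the 13116 genes tested called lower and 0.709% called higher. Those are 186 and 93 genes, which became 328 and 119 without SSD-fed WT replicate 1 and 30 and 15 without Klrk1-/- replicate 1. The groups did not overlap for 6 members, against 17.9% of all genes. The members had a median log2 fold change of 0.13. Dhcr7 was at 374, 319, 359, 277 and 274 in the WT mice and at 94.6, 124 and 171 in the Klrk1-/- mice. The Klrk1-/- values were all lower than the lowest WT value, and the log2 fold change was -1.33 (SE 0.19, 95% interval -1.74 to -0.92, adjusted p = 0.00838), a 2.51-fold difference. On NCD Dhcr7 had been at 2684, 3634, 3707 and 2968 in WT and 3313, 3403, 3599 and 2999 in Klrk1-/- mice, with overlapping groups and a log2 fold change of 0.05 (-0.20 to 0.29).

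Sc5d, which acts on the sterol just before Dhcr7, was also lower, at 4240.1, 4044, 4099.9, 3554 and 4331 in SSD-fed WT mice and 2016, 2836 and 2376 in SSD-fed Klrk1-/- mice. The groups did not overlap, and the log2 fold change was -0.76 (SE 0.11, adjusted p = 0.0108). Insig1 was higher, at 1040.3, 1859.5, 1448, 1622 and 1753 in WT and 2355, 2848 and 2643 in Klrk1-/- mice, again without overlap (log2 fold change 0.78, SE 0.17, adjusted p = 0.0398). The exact two-sided permutation test gave p = 0.0357 for each of these 3 genes, the smallest it can give for 5 against 3 mice. Without SSD-fed WT replicate 1 the log2 fold changes were -1.27 for Dhcr7 (adjusted p = 0.00417), -0.74 for Sc5d (adjusted p = 0.00639) and 0.65 for Insig1 (adjusted p = 0.00677). The Sc5d call was lost without Klrk1-/- replicate 1 (-0.64, adjusted p = 0.0637) or 3 (-0.76, adjusted p = 0.0578). The Insig1 call was lost without WT replicate 3 (0.77, adjusted p = 0.082) or 4 (0.81, adjusted p = 0.0636) and without each Klrk1-/- replicate, where adjusted p ran from 0.122 to 0.154.

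The other members did not pass the test between genotypes on SSD. Sqle was at 21.9, 32.1, 27.6, 17.8 and 13.1 in WT and 11.6, 12.05 and 13.7 in Klrk1-/- mice, where the highest Klrk1-/- value lay just above the lowest WT value (log2 fold change -0.74, 95% interval -1.46 to -0.03, adjusted p = 0.206). Lss was at 302, 319, 361, 343 and 371 in WT and 412, 426 and 459 in Klrk1-/- mice without overlap, by 1.28-fold (adjusted p = 0.0762). Tm7sf2 and Msmo1 did not overlap either, with log2 fold changes of 0.48 and 0.27 (adjusted p = 0.208 and 0.192). For 16 of the 26 members the 95% interval lay within 1.5-fold. Dhcr7, Sc5d and Insig1 are 3 of the 5 members with CACGTG in a listed promoter, which was seen after their values were known and was not tested.

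**Figure D3:**
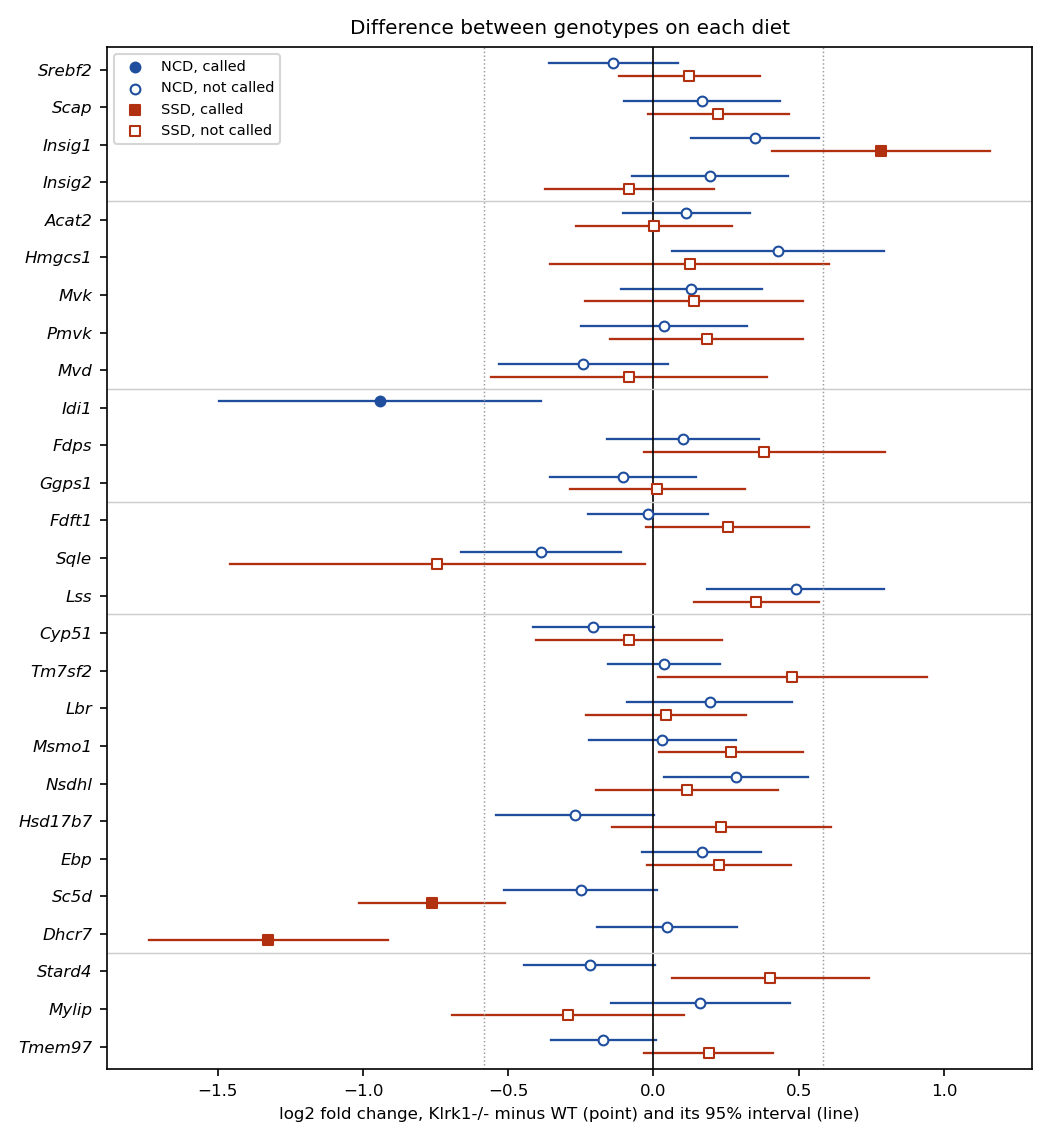
Log2 fold change of Klrk1-/- against WT mice (x axis) for each tested member (y axis) on NCD (circles) and SSD (squares), with its 95% interval as a line. Filled symbols are called and dotted lines mark 1.5-fold: Idi1 on NCD, and Insig1, Sc5d and Dhcr7 on SSD.

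Some cell type markers and some clock genes were also called between the genotypes, to be read against 1.42% of all genes called lower and 0.709% higher on SSD, and 2.87% and 2.92% on NCD. The 8 macrophage markers summed to between 7683 and 18517 in SSD-fed WT mice and to between 5744 and 7204 in SSD-fed Klrk1-/- mice, and 2 of the 8, Cd68 and Marco, were called lower in the latter. All 8 were above the floor in each group. The summed hepatocyte markers did not overlap on SSD either, at 2184240 to 2384220 in Klrk1-/- mice against 1836570 to 2056140 in WT mice, with 0 of 8 called by limma. Of 14 core clock genes, 2 were called lower in Klrk1-/- mice on SSD, where the median log2 fold change of the 14 was 0.03. Per1 was at 815, 787, 991, 1367 and 1177 in WT and 334, 420.0 and 541 in Klrk1-/- mice (log2 fold change -1.24, adjusted p = 0.0148), and Per2 had a log2 fold change of -0.80 (adjusted p = 0.0476). On NCD 2 clock genes were lower, among them Per2 (-1.19, adjusted p = 0.00117), and 2 higher, among them Nr1d1 (1.22, adjusted p = 0.0113). Of the markers on NCD, 1 of 5 of cholangiocytes, 1 of 8 of macrophages and 1 of 8 of hepatocytes were lower in Klrk1-/- mice and 1 of 4 of B cells was higher. The cholangiocyte markers had a median log2 fold change of -0.83. The part of any of these in the differences at Dhcr7, Sc5d, Insig1 and Idi1 was not tested, and the hour at which livers were taken is not given in the sources used here.

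Whether the response to the diet differed between the genotypes was tested with an interaction term over all 16 mice. Of 27 members, Dhcr7 alone was called, 1 member with a stronger drop in Klrk1-/- mice, and 0 in the other direction, against 0.559% and 0.291% of the 13068 genes tested. Its interaction was -1.37 on the log2 scale (SE 0.22, 95% interval -1.84 to -0.91, adjusted p = 0.00963). It was called in each of the alternative fits and with each mouse left out in turn, between -1.59 and -1.17, with adjusted p up to 0.0326. The count of 0 members higher came from limma, and edgeR and DESeq2 on recovered reads gave 0 too. In either direction 6 members had an unadjusted p under 0.05. Besides Dhcr7 these were Stard4 (0.62, adjusted p = 0.12), Tmem97 (0.36, adjusted p = 0.153), Sc5d (-0.51, adjusted p = 0.155), Hsd17b7 (0.50, adjusted p = 0.255) and Insig1 (0.43, adjusted p = 0.286), none of which passed the correction in this fit. Stard4 was called higher with a replicate block, which was fitted on fewer mice (0.89, adjusted p = 0.0466). For 12 of the 27 members the 95% interval of the interaction lay within 1.5-fold. For the other 15 these mice do not set so close a limit. In the same test 1 of 8 macrophage markers, Cd68, was called lower (-1.57, adjusted p = 0.0107), the 8 had a median of -0.65, and their part in the result was not tested.

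**Figure D4:**
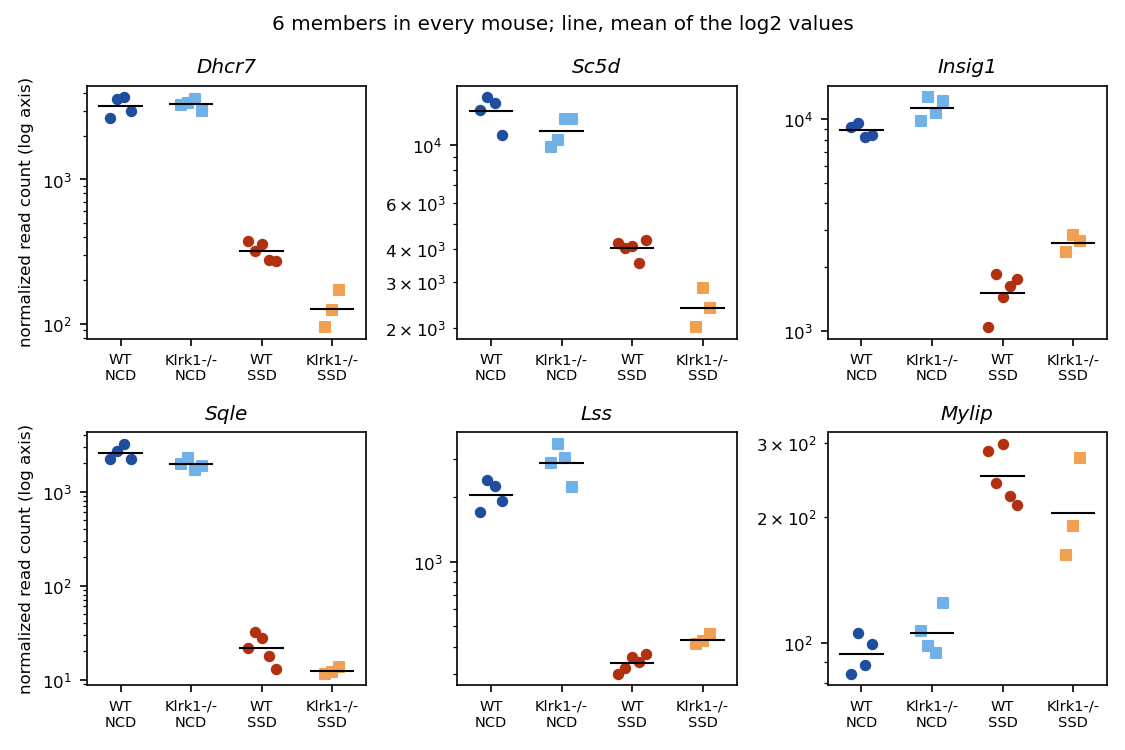
Normalized read count (y axis, log scale, a scale of its own in each panel) of 6 members in every mouse of the 4 groups (x axis), with the mean of the log2 values as a line. On SSD the Klrk1-/- values of Dhcr7 and Sc5d lie below all WT values and those of Insig1 above them, while Mylip rises with the diet.

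Summed per mouse, the 20 enzyme genes among the members were scaled to each library's total (CPM) and stood between 2427 and 3192 in WT mice on NCD and between 648 and 775 in WT mice on SSD. In Klrk1-/- mice the ranges were 2535 to 3018 on NCD and 602 to 665 on SSD. The diets stood apart in both genotypes, and the genotypes overlapped on each diet. On the log2 scale the mean of the 27 members was 10.95 ± 0.14 (SD, n = 4) in NCD-fed and 8.62 ± 0.14 (n = 5) in SSD-fed WT mice, and 10.94 ± 0.06 (n = 4) and 8.63 ± 0.14 (n = 3) in the Klrk1-/- mice of the same diets.

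**Figure D5:**
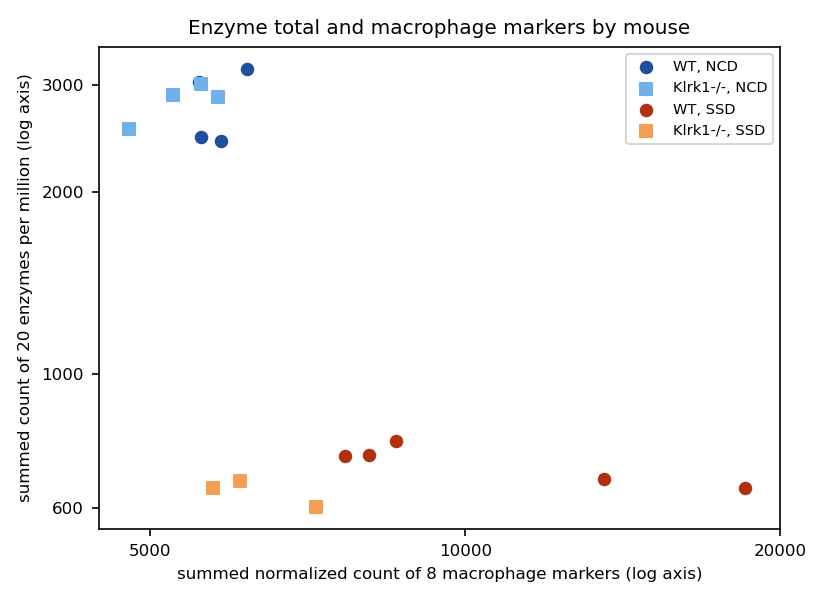
Summed count of the 20 enzyme genes as a share of each library's normalized total, as labelled on the y axis (log scale), against the summed normalized count of 8 macrophage markers (x axis, log scale), with a point for each mouse. The diets separate on the y axis in both genotypes, and the SSD-fed WT mice are spread widest on the x axis.

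Genes near the pathway were counted from lists of genes by their known roles, chosen with earlier results of these data known, to be read against the shares called over all genes, 7.32% lower and 11.9% higher on SSD in WT mice and 6.6% and 6.54% in Klrk1-/- mice. Of 11 other genes of SREBP processing and sterol sensing, 1 was lower and 1 higher on SSD in each genotype, near those shares. Rnf145, a sterol-responsive ubiquitin ligase, rose by 1.60 on the log2 scale in WT (SE 0.11) and 1.51 in Klrk1-/- mice (SE 0.13), and Syvn1, a ligase of protein quality control in the endoplasmic reticulum, had log2 fold changes of -1.47 and -1.06. Syvn1 was also lower in Klrk1-/- mice on NCD (-1.05, adjusted p = 0.00342). Of 9 electron donors and partners of the sterol enzymes in the table, 5 were lower and 2 higher in WT mice, and 4 lower and 2 higher in Klrk1-/- mice. Erg28, a scaffold of the demethylating enzymes, fell (log2 fold changes -1.35 and -1.06), as did Cyb5r3 (-1.16 and -1.36), a reductase of cytochrome b5.

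Por moved the other way. This reductase gives electrons to Cyp51 and Sqle and to the drug-metabolising cytochromes. It was at 3292, 4254, 3366 and 3682 in NCD-fed and 6656, 6098, 6924, 7847 and 7765 in SSD-fed WT mice, and at 3162, 3180.5, 3337 and 3378 and 10415, 10347 and 11002 in the Klrk1-/- mice. The SSD-fed Klrk1-/- mice were higher than all others, with a log2 fold change between genotypes on SSD of 0.59 (SE 0.10, adjusted p = 0.0185) and an interaction of 0.74 (SE 0.13, adjusted p = 0.0156).

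Of 16 genes of the isoprenoid branches, which make dolichol, ubiquinone and prenylated proteins, 0 were lower and 1 higher in WT mice, and 1 lower and 1 higher in Klrk1-/- mice, which is no more than the shares over all genes. Srd5a3, of dolichol synthesis, was higher in both (log2 fold changes 1.08 and 0.83), and Pdss1, of ubiquinone synthesis, was lower in Klrk1-/- mice (-0.71, adjusted p = 0.0103). The median of this list was -0.15 in WT and -0.12 in Klrk1-/- mice. Of 13 LXR targets and genes of sterol export, 1 was lower and 4 higher in WT mice, and 2 lower and 3 higher in Klrk1-/- mice. Abcg5 and Abcg8, which together pump sterols into bile, rose by 2.53 and 2.38 on the log2 scale in WT mice (SE 0.13 and 0.12) and by 2.01 and 2.13 in Klrk1-/- mice. Cyp7a1 was lower on SSD in both (-1.02 and -0.95) and Pltp, a phospholipid transfer protein, in Klrk1-/- mice (-1.87, adjusted p = 4.59e-05), while the cholesterol exporter Abca1 was not called (log2 fold changes -0.0044 and 0.25). The median of this list was 0.10 in WT and 0.32 in Klrk1-/- mice. Between genotypes on NCD, 2 of the 13 were lower and 3 higher in Klrk1-/- mice, against 2.87% and 2.92% of all genes, and on SSD 1 was lower, against 1.42%. Abcg5 (0.77, adjusted p = 0.00689), Abcg8 (0.59, adjusted p = 0.0145) and Pltp (0.999, adjusted p = 0.00463) were higher on NCD, and Abca1 was lower (-0.63, adjusted p = 0.00409). Cyp7a1, the rate-limiting enzyme of bile acid synthesis, was lower in Klrk1-/- mice on both diets. It was at 1479.7, 4200.5, 2982 and 978 in NCD-fed WT against 796, 678, 971 and 556 in NCD-fed Klrk1-/- mice, and at 1251, 665, 1118, 1073 and 1106 against 285, 489 and 395 on SSD, without overlap on either diet. The log2 fold changes were -1.49 (SE 0.35, adjusted p = 0.0185) and -1.42 (SE 0.21, adjusted p = 0.0114). Of 19 further genes with sterol-responsive transcription, several of them in fatty acid synthesis, 7 were lower and 1 higher on SSD in each genotype. Acss2, which makes acetyl-CoA from acetate, had log2 fold changes of -2.95 and -3.11, and Rdh11, a retinol dehydrogenase, of -2.16 and -2.48. The median of this list was -0.17 in both genotypes. None of the 19 was called between genotypes on NCD or SSD.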

How the data were processed

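Liver RNA of 16 mice was read as 100-base single reads. The authors aligned reads with STAR to GRCm39 and counted them with FeatureCounts on GENCODE M26. The study's methods name a total RNA kit and the labels an mRNA kit, and the use of strand in counting is not given in the sources used here. The values the authors deposited are normalized read counts, a signal in which each library's counts are divided by 1 factor, and how the factors were computed is not given in the sources used here. Whole reads were recovered from the steps of the values. In each library 100% of values came out within 0.01 of a whole number, with a wider limit for genes with very many reads. On these reads edgeR called 1591 genes higher and 967 lower on SSD in WT mice, 902 and 828 in Klrk1-/- mice, 376 and 376 between genotypes on NCD, 86 and 143 on SSD, and 34 and 53 in the interaction.

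Groups came from the labels. The members and lists were chosen with earlier results of these data known. Genes averaging 10 or more normalized counts in the mice compared were tested as log2(normalized count + 1) with limma 3.58.1 (R 4.3.3), trend on, with Benjamini-Hochberg adjustment over all of them. CPM values are sums relative to each library's normalized total. Fold changes are on the log2 scale given and understate the change of low genes. Called means adjusted p under 0.05 and a difference over 1.5-fold, the study's limits. Each comparison was fitted on its 2 groups and the interaction on all 16 mice. Named were every member, Klrk1, genes that overlap a member, and at most 3 called genes per list, comparison and direction. Genes at 3 or fewer reads were taken as at the floor, which covers counting error only. Alternatives were edgeR 4.0.16 and DESeq2 1.42.0 on recovered reads, other scalings, filters, pseudocounts and limits, a replicate block, and each mouse left out. The block fits kept only mice whose replicate number occurred in every group compared. The tests were tried on simulated data. Promoters came from RefSeq, where 24 members matched by symbol.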

Additional observations from a re-analysis of the deposited data

Results flagged for a closer look

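In 4 of 81 groups of 4 or 5 mice tested, 1 mouse stood apart from the rest of its group by Dixon's test, and chance gives about 1 in 20. Among NCD-fed Klrk1-/- mice, replicate 2 was at 724 normalized counts for Mvk against 559.6 to 584 in the others, and at 11461 for Fdps against 8440.4 to 8544. Replicate 4 of the same group was at 3978 for Msmo1 against 4202 to 4218. Among NCD-fed WT mice, replicate 5 was at 1505 for Tmem97 against 1699.7 to 1739. The diet's effect on Dhcr7 differed between the genotypes, by -1.37 on the log2 scale in the interaction test.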

How the results depend on the processing

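Over 23 settings in WT and 21 in Klrk1-/- mice, 22 to 24 and 21 to 24 members were called lower on SSD, and no call changed sign. The block fits also left out mice with no same-numbered partner, so their changes cannot be put down to the block alone. The gene added in Klrk1-/- mice with the replicate block (-0.63) was Lbr. Leaving out NCD-fed Klrk1-/- replicate 4 without a block added Lbr too (-0.63, adjusted p = 0.00654). Members called higher in WT mice came to 2 with the same total, with quantile normalization and with no fold limit, where the added gene was Insig2, and those in Klrk1-/- mice to 0 with a 2-fold limit. Between genotypes on NCD, members called lower came to 0 with no variance trend, with all 4 groups in the fit and with a 2-fold limit, and to 0 to 1 with a mouse left out. Members called higher there came to 2 with no fold limit and 0 to 1 with a mouse left out. On SSD, members called lower came to 1 with a 2-fold limit, 3 with all 4 groups in the fit, where Sqle was added (adjusted p = 0.0416), and 1 to 2 with a mouse left out, and those called higher to 0 with no variance trend or a 2-fold limit and 0 to 1 with a mouse left out. The cause of these changes was not tested. Correlations of same-numbered mice ran from -0.133 to 0.246. They were not set against those of differently numbered mice, so whether the replicate numbers pair the mice was not settled. With the replicate block, fitted only on replicates 1 to 3 of each group, 1 member was called higher in the interaction, Stard4 (0.89, adjusted p = 0.0466). Idi1, Sqle on SSD and Npc1l1 are limited by few reads. Over all genes, those called between genotypes on SSD came to 93 higher and 186 lower, against 154 and 515 with DESeq2, 145 and 412 with all 4 groups, 181 and 414 with the replicate block, 55 and 101 with no variance trend, 82 and 116 with a minimum mean of 50, and 52 and 272 with the same total. In the interaction 38 and 73 became 106 and 248 with DESeq2, 13 and 38 with the block, 18 and 48 with no variance trend, and 21 and 86 with the same total. On NCD 375 and 369 became 613 and 516 with the block, which there also left out WT replicate 5 and Klrk1-/- replicate 4. With no variance trend they became 264 and 244. With 1 mouse left out, the genes called between genotypes on SSD came to 15 and 30 without Klrk1-/- replicate 1, 26 and 54 without 2, 24 and 37 without 3, 119 and 328 without WT replicate 1, 57 and 86 without 2, 51 and 84 without 3, 83 and 119 without 4, and 104 and 313 without 5. Those on NCD ran from 210 and 215 without Klrk1-/- replicate 3 to 526 and 446 without WT replicate 5, with 234 and 265 without WT replicate 1. Those in the interaction ran from 11 and 26 without SSD-fed Klrk1-/- replicate 3 to 47 and 138 without SSD-fed WT replicate 5.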
